A study of Mus musculus with 11 samples.

Results

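Homologous recombination and the Fanconi pathway were followed in thymocytes through 9 genes: Brca1, Brca2, Bard1, Palb2, Rad54l, Rad51ap1, Fancd2, Fanca and Blm. The genes were listed by name, in a list drawn up with earlier results of these data known, and each symbol matched 1 of the 54418 genes in the count table. All 9 passed the filter on low counts in each of the 3 comparisons between genotypes. In the pairwise edgeR tests between wt thymocytes, those without Zmat3 (Zmat3-/-) and those that also lack Puma and p21 (Puma-/-p21-/-Zmat3-/-, TKO), none of the 9 transcripts passed the adjusted threshold. The deleted genes did not pass it either. Between Zmat3-/- and wt mice, Blm was called with 1 surrogate variable in the model, in a fit that called 37.8% of all genes. Bard1, Palb2 and Fanca were called without wt mice 1 and 2, where 33.0% of all genes were called. That omission was chosen after seeing the data. The spread between animals was wide and partly shared: all 9 genes lay above their own 11-mouse mean in wt mouse 3 and TKO mouse 3 and below it in wt mouse 2 and TKO mouse 2, whereas in wt mouse 1 only 3 lay above it.

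Homologous recombination repairs a broken DNA duplex by copying the intact sister chromatid, and therefore acts in cells that have replicated their DNA. BRCA1 with its partner BARD1 acts at the break, PALB2 links BRCA1 to BRCA2, and BRCA2 prepares the single-stranded DNA for strand exchange. RAD54L and RAD51AP1 help the strand to invade the template, and the BLM helicase takes the joint molecules apart. The Fanconi pathway handles crosslinks between the DNA strands. Its core complex, which contains FANCA, leads to the ubiquitination of FANCD2, and inherited loss of the pathway causes Fanconi anaemia. In the thymus many cells divide, and T cell receptor genes are cut and rejoined there by end joining, a different repair route.

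The RNA came from thymocytes of mice 8 to 12 weeks old on a C57BL/6-WEHI background, with 4 wt, 4 Zmat3-/- and 3 TKO animals. TKO mice lack Zmat3, Puma (Bbc3) and p21 (Cdkn1a), which are target genes of TRP53, so the Zmat3 deletion is common to both mutant genotypes, and Puma-/-p21-/- mice that retain Zmat3 were not analysed here. The deletions are carried by every cell of the animal and no sort of the thymocytes is described for the RNA, so other cells could contribute to it. The design asked how TKO and Zmat3-/- thymocytes differ from wt and from each other. No treatment was given in the labels. In such bulk samples, fewer cells of a type and less RNA per cell cannot be told apart.

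The total counts ranged from 17669715 to 80207003 per mouse, and 3 counts correspond to 0.0403 to 0.167 CPM (reads relative to library size, scaled with TMM factors). All 13 thymocyte markers listed for this work were counted above 3 reads in at least 1 mouse of every genotype, and their summed level ranged from 14332 to 17188 CPM (wt), 14334 to 16526 CPM (Zmat3-/-) and 15249 to 20150 CPM (TKO). Markers of other cells were present at lower summed levels in every mouse: 162 to 264 CPM for 11 stromal genes, 144 to 334 for 9 myeloid genes, 50.2 to 109 for 5 B cell genes and 569 to 5277 for 4 erythroid genes. The deleted genes were still counted. Zmat3 stood at 9.88, 12.2, 26.8 and 26.8 CPM in wt mice 1 to 4, with 5.34 to 6.85 CPM in the 4 Zmat3-/- animals and 7.78 to 8.25 CPM in the TKO animals. The wt, Zmat3-/- and TKO ranges were 16.8 to 20.1, 15.3 to 19.8 and 12.9 to 15.2 CPM for Bbc3, and 3.53 to 10.4, 4.77 to 8.53 and 2.49 to 3.52 CPM for Cdkn1a. Against wt, none of the deleted genes passed the adjusted edgeR threshold. The adjusted p was 0.0786 for Zmat3 in Zmat3-/- mice. In TKO mice it was 0.371 for Zmat3, 0.399 for Bbc3 and 0.443 for Cdkn1a. A missing call in these tests therefore does not show an unchanged level. Counts were summed over a whole gene, so reads from exons outside a deletion cannot be separated from the rest. wt mice 1 and 2 stood apart from wt mice 3 and 4: genes with at least 6000 exon bases lay at a median log2 deviation of −0.40 and −0.27 from the 11-mouse mean in the former and at 0.12 and 0.097 in the latter. Genes with at most 2000 exon bases lay the other way, at 0.76 and 0.50 against −0.33 and −0.37. Xist was counted at 505 and 620 CPM in wt mice 1 and 2 and at 1.70 and 2.54 CPM in wt mice 3 and 4. It also split the mutant groups, with 1088 and 1354 CPM in Zmat3-/- mice 1 and 2 and 1485 CPM in TKO mouse 1 against 0.806 to 2.11 CPM in the other mutant animals, but long genes lay at −0.0019, 0.050 and 0.031 in those 3 mice. Where the omission of wt mice 1 and 2 changed a call on any of the 9 genes, that is given beside the result. For the further repair genes the number of calls is given, with some of the genes named.

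The sequences before the start sites were read to see what the 9 genes share besides their function. The RefSeq promoter table (GRCm38.p6) held 8 of the 9, all but Fancd2. CCAAT, the word bound by NF-Y, a factor of many cell cycle promoters, stood on either strand within 250 bases upstream of the start in 5 of the 8 (Brca1, Rad54l, Rad51ap1, Fanca and Blm), and in 33.8% of all 32851 promoters of the same length. In 4 of these 5 genes it lay within 100 bases of the start and outside annotated exons, and those stretches are shown, 5′ to 3′ on the gene's strand, with CCAAT or its reverse complement ATTGG in capitals. They cover chr11:101551956-101552055 (Brca1), chr4:116123691-116123790 (Rad54l), chr6:126939588-126939687 (Rad51ap1) and chr8:123318577-123318676 (Fanca), all on the minus strand.
Brca1: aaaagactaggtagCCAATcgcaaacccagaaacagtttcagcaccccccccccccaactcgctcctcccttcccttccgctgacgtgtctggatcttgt
Rad54l: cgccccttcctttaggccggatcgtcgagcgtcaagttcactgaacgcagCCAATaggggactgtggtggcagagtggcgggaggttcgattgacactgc
Rad51ap1: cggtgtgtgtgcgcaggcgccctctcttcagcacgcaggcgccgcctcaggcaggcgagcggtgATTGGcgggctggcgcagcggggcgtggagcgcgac
Fanca: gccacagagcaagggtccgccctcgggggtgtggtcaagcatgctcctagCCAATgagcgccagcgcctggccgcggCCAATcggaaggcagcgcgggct
The word began 86 bases upstream of the start in Brca1, 50 in Rad54l, 36 in Rad51ap1, and 50 and 23 in Fanca.

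E2F words (TTTGGCGC, TTTCCCGC, TTTGCCGC or TTTCGCGC on either strand), named for the factors that activate genes at the start of S phase, stood upstream of 2 of the 8 genes, Brca2 and Bard1, and in 1.86% of all promoters. The Brca2 stretch, chr5:150522421-150522520 on the plus strand, carried the word on the other strand, beginning 168 bases upstream of the start, with its letters in capitals.
Brca2: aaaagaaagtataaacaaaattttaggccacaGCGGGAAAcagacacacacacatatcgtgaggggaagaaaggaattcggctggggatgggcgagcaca
The word TTTGAA, known as the cell cycle genes homology region (CHR), stood upstream of Bard1 alone among the 8, and in 16% of all promoters. A match describes letters and is not a bound site, and no gene carried both an E2F word and CCAAT in this window.

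Brca1 (ENSMUSG00000017146.12, chr11:101488764-101551955, minus strand) encodes a ubiquitin ligase subunit and tumour suppressor. It was measured at 32.5, 24.8, 42.1 and 46.3 CPM in wt mice 1 to 4, at 43.0, 44.5, 37.1 and 35.1 in Zmat3-/- mice 1 to 4, and at 33.9, 29.0 and 53.3 in TKO mice 1 to 3. The 3 genotypes overlapped, with the lowest value in a wt and the highest in a TKO animal. The log2FC was 0.023 ± 0.26 (SE) for TKO against wt (edgeR adjusted p = 0.974), 0.13 ± 0.20 for Zmat3-/- against wt (adjusted p = 0.760) and −0.11 ± 0.14 for TKO against Zmat3-/- (adjusted p = 0.983).

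Bard1 (ENSMUSG00000026196.7, chr1:71027498-71103146, minus strand), whose product is the obligate partner of BRCA1, was measured at 34.3, 26.1, 33.3 and 31.2 CPM in wt, at 25.7, 29.3, 25.6 and 20.1 in Zmat3-/-, and at 21, 17.8 and 36.2 in TKO mice. Its wt mean of 31.2 ± 3.64 CPM (SD, n = 4) stood above 25.2 ± 3.82 (SD, n = 4) in Zmat3-/- and 25.0 ± 9.84 (SD, n = 3) in TKO mice, but TKO mouse 3 had the highest value of all 11. This was the lowest log2FC among the 9 genes in both comparisons with wt, −0.39 ± 0.22 in TKO (95% CI −0.89 to 0.11, edgeR adjusted p = 0.565) and −0.31 ± 0.14 in Zmat3-/- mice (−0.63 to 0.019, adjusted p = 0.337). Without wt mice 1 and 2 the Zmat3-/- difference was −0.37 (adjusted p = 0.0443), in a fit that called 33.0% of all genes. Between TKO and Zmat3-/- mice it was −0.076 ± 0.18 (adjusted p = 0.985).

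The level of Brca1 per exon length relative to that of Bard1 was compared after the values were seen, and is given as a description. The ratio was 0.628, 0.630, 0.839 and 0.983 in wt mice 1 to 4, 0.960 to 1.16 among Zmat3-/- and 0.978 to 1.08 among TKO mice. The low ratios lay in wt mice 1 and 2, in which long genes were also low. Brca1 has 8533 exon bases and Bard1 5659. The part of this shift in the ratio was not tested.

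Palb2 (ENSMUSG00000044702.13, chr7:122107262-122132985, minus strand), the bridge between BRCA1 and BRCA2, was the least abundant of the 9. It was measured at 8.75, 8.05, 14.4 and 14.4 CPM in wt, at 9.93, 9.11, 10.0 and 8.93 in Zmat3-/-, and at 11.2, 8.22 and 11.2 in TKO mice. wt mice 1 and 2 lay at the low end of the mutant range or below it, and wt mice 3 and 4 above all mutant animals. The log2FC was −0.20 ± 0.27 for TKO against wt (edgeR adjusted p = 0.774), −0.26 ± 0.22 for Zmat3-/- against wt (adjusted p = 0.595) and 0.056 ± 0.13 for TKO against Zmat3-/- (adjusted p = 0.983). Without wt mice 1 and 2, an alternative chosen after seeing the data, the difference between Zmat3-/- and the remaining 2 wt mice was −0.61 (adjusted p = 0.00286), in a fit where 33.0% of all genes passed the same threshold.

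Brca2 (ENSMUSG00000041147.10, chr5:150522630-150570329, plus strand), which PALB2 brings to the break, spread most between animals. It was measured at 17.7, 14.5, 27.8 and 25.3 CPM in wt, at 25.9, 27.1, 25.9 and 19.8 in Zmat3-/-, and at 22.8, 13.3 and 35.7 in TKO mice. The lowest and the highest value of the 11, 2.68-fold apart, were both in TKO animals. The log2FC was 0.095 ± 0.33 for TKO against wt (95% CI −0.67 to 0.86, edgeR adjusted p = 0.917), 0.21 ± 0.22 for Zmat3-/- against wt (adjusted p = 0.653) and −0.11 ± 0.22 for TKO against Zmat3-/- (adjusted p = 0.983). Per exon length, Brca2 stood at 0.948 to 1.09 times the level of Palb2 among wt, 1.20 to 1.60 among Zmat3-/- and 0.873 to 1.71 among TKO mice, a ratio that was also formed after the values were seen. Brca2 has 13643 exon bases and Palb2 7342, and the part of length was not tested. The other ratio formed in this way, Rad51ap1 to Rad54l, overlapped, with 1.69 to 2.36 among wt and 2.00 to 2.28 among Zmat3-/- mice. How many pairs of other genes separate was not counted.

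Rad54l (ENSMUSG00000028702.15, chr4:116094264-116123690, minus strand) encodes a DNA translocase of the strand exchange step. The transcript was found at 27.8, 23.1, 25.7 and 28.7 CPM in wt, at 25.3, 26.5, 24.1 and 19.0 in Zmat3-/-, and at 17.5, 19.7 and 31.8 in TKO mice. TKO mouse 1 was the lowest and TKO mouse 3 the highest of all. The log2FC was −0.26 ± 0.19 for TKO against wt (edgeR adjusted p = 0.639), −0.15 ± 0.13 for Zmat3-/- against wt (adjusted p = 0.613) and −0.11 ± 0.16 for TKO against Zmat3-/- (adjusted p = 0.983).

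Rad51ap1 (ENSMUSG00000030346.16, chr6:126923050-126939587, minus strand) encodes a DNA-binding protein of the same step. It was measured at 41.0, 30.2, 35.3 and 30.2 CPM in wt, at 32.3, 35.7, 30.2 and 27.1 in Zmat3-/-, and at 24.3, 22.9 and 36.5 in TKO mice. TKO mice 1 and 2 were below every other animal and TKO mouse 3 was among the highest. Its log2FC of −0.35 ± 0.17 for TKO against wt had the lowest p of the 9 genes in that comparison (95% CI −0.75 to 0.058, unadjusted p = 0.0832, edgeR adjusted p = 0.533). The log2FC was −0.12 ± 0.13 for Zmat3-/- against wt (adjusted p = 0.672) and −0.23 ± 0.12 for TKO against Zmat3-/- (adjusted p = 0.983).

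Fanca (ENSMUSG00000032815.16, chr8:123268300-123318576, minus strand) encodes a subunit of the Fanconi core complex. Its level was 19.6, 13.6, 26.8 and 25.0 CPM in wt, 22.2, 23.4, 20.9 and 19.4 in Zmat3-/-, and 18.6, 15.9 and 23.8 in TKO mice. The wt animals held both the lowest and the highest value and enclosed all mutant values. The log2FC was −0.18 ± 0.25 for TKO against wt (edgeR adjusted p = 0.778), 0.014 ± 0.21 for Zmat3-/- against wt (adjusted p = 0.977) and −0.20 ± 0.10 for TKO against Zmat3-/- (95% CI −0.43 to 0.037, adjusted p = 0.983). Without wt mice 1 and 2 the Zmat3-/- difference from wt was −0.29 (adjusted p = 0.0380), again with 33.0% of all genes called.

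Fancd2 (ENSMUSG00000034023.16, chr6:113531682-113597017, plus strand) encodes the protein that the core complex marks with ubiquitin. Levels were at 20.7, 17.0, 30.3 and 31.2 CPM in wt, at 30.5, 35.5, 29.2 and 26.7 in Zmat3-/-, and at 23.3, 21.1 and 39.5 in TKO mice. wt mice 1 and 2 with TKO mice 1 and 2 made up the lowest values. It had the highest log2FC of the 9 genes in both comparisons with wt, 0.30 ± 0.22 in Zmat3-/- (95% CI −0.19 to 0.79, edgeR adjusted p = 0.528) and 0.11 ± 0.28 in TKO mice (adjusted p = 0.886), and −0.19 ± 0.16 for TKO against Zmat3-/- (adjusted p = 0.983).

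Blm (ENSMUSG00000030528.12, chr7:80454733-80535119, minus strand), the helicase lost in Bloom syndrome, was measured at 31.5, 27.6, 43.8 and 42.9 CPM in wt, at 43.2, 43.3, 43.4 and 42.2 in Zmat3-/-, and at 37.7, 28.3 and 55.1 in TKO mice. The Zmat3-/- values lay close together, with a coefficient of variation of 1.30% against 22.4% in wt and 33.6% in TKO mice. That 1.30% is below the counting error of Blm in the Zmat3-/- libraries, 2.32% to 3.14%, so it does not measure the spread between these animals. The log2FC was 0.083 ± 0.24 for TKO against wt (edgeR adjusted p = 0.901), 0.24 ± 0.17 for Zmat3-/- against wt (adjusted p = 0.504) and −0.15 ± 0.13 for TKO against Zmat3-/- (adjusted p = 0.983). With 1 surrogate variable in the model the Zmat3-/- difference was 0.22 (adjusted p = 0.0380), in a fit that called 37.8% of all genes.

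**Figure D1:**
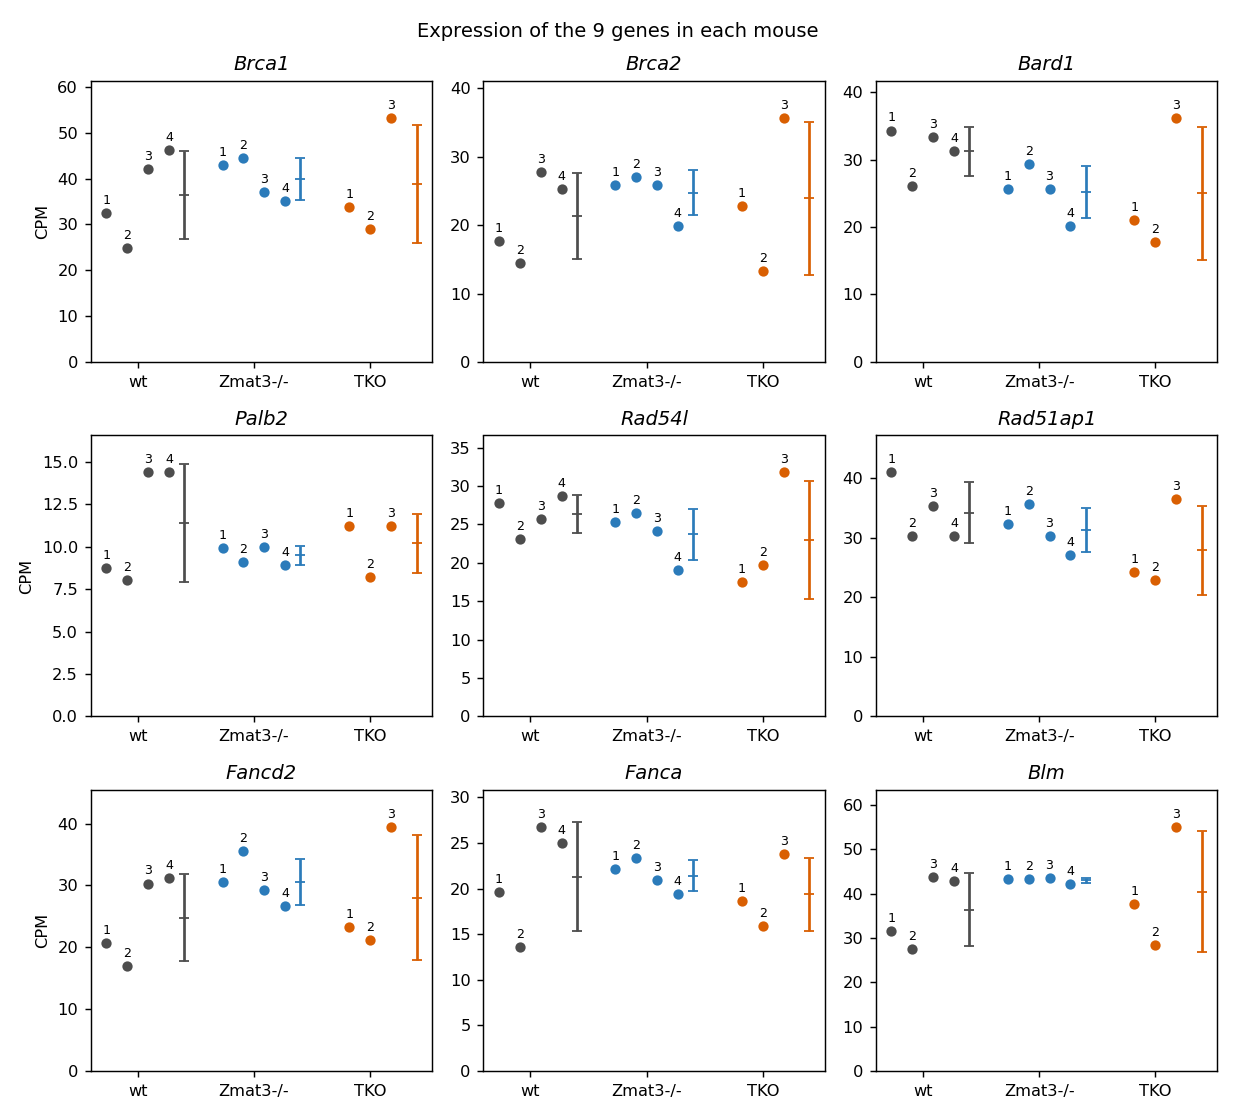
Each panel shows 1 gene, with CPM on the vertical axis from 0, 1 point per mouse labelled with its number, and the mean ± SD of each genotype (4 wt, 4 Zmat3-/- and 3 TKO mice) as a bar at its right. The genotypes overlap in all 9 panels, and TKO mouse 3 is the highest TKO animal in each.

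Across the 9 genes, edgeR called 0 members at an adjusted p under 0.05 in any of the 3 comparisons, and 0 at an unadjusted p under 0.05. DESeq2 also called 0 of the 9 in each comparison. With 1 surrogate variable, 4 of the 9 had an unadjusted p under 0.05 in TKO against Zmat3-/- mice (Rad51ap1, Fancd2, Fanca and Blm, all lower, where 3.86% of all genes were lower), 4 in Zmat3-/- against wt (Bard1 and Palb2 lower, Fancd2 and Blm higher, beside 20.5% lower and 26.5% higher of all genes) and 0 in TKO against wt. Of these, Blm in Zmat3-/- against wt passed the adjusted threshold. Single genes also reached that unadjusted p in other fits with every mouse: Rad51ap1 was lower in TKO against wt with all genotypes in one fit, and Bard1 in Zmat3-/- against wt with exon length as an offset. The background was low as well at the adjusted threshold: 0.294% of 13260 genes passed it for TKO against wt, 0.763% of 13494 (103 genes, or 12 with the replicate number as a block) for Zmat3-/- against wt and 0.221% of 13124 for TKO against Zmat3-/- mice. At an unadjusted p under 0.05, TKO mice had 4.17% of genes above and 6.18% below wt. The same shares were 7.18% and 8.92% for Zmat3-/- against wt, and 2.26% and 2.23% for TKO against Zmat3-/- mice. The CPM ranges of the genotypes overlapped for all 9 genes in every comparison, whereas they did not overlap for 12.1%, 14.1% and 4.92% of all tested genes in the same order.

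All 27 confidence intervals spanned 0. They bound the differences that the data allow: the fold lay between 0.540 (Bard1) and 1.82 (Brca2) in TKO against wt, between 0.586 (Palb2) and 1.73 (Fancd2) in Zmat3-/- against wt, and between 0.661 and 1.30 (both Brca2) in TKO against Zmat3-/- mice, at 95% confidence for each gene. The median log2FC of the 9 genes was −0.18 in TKO against wt (−0.037 over all genes), with 4 above and 5 below 0. It was 0.014 in Zmat3-/- against wt (−0.026 over all genes), with 5 above and 4 below 0, and −0.11 in TKO against Zmat3-/- mice (−0.0083 over all genes), with 1 above and 8 below 0. Single mice moved these medians. That of TKO against wt was −0.33 without wt mouse 2, −0.052 and −0.058 without wt mice 3 and 4, and −0.087 and −0.098 without TKO mice 1 and 2. That of Zmat3-/- against wt ranged from −0.16 without wt mouse 2 to 0.15 without wt mouse 3, and changed sign with 4 of the 8 single omissions. That of TKO against Zmat3-/- mice was −0.34 without TKO mouse 3, 0.015 without TKO mouse 2, −0.071 and −0.066 without Zmat3-/- mice 1 and 2, and −0.19 without Zmat3-/- mouse 4. These comparisons share animals, and the members vary together, so the counts of signs are descriptions.

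**Figure D2:**
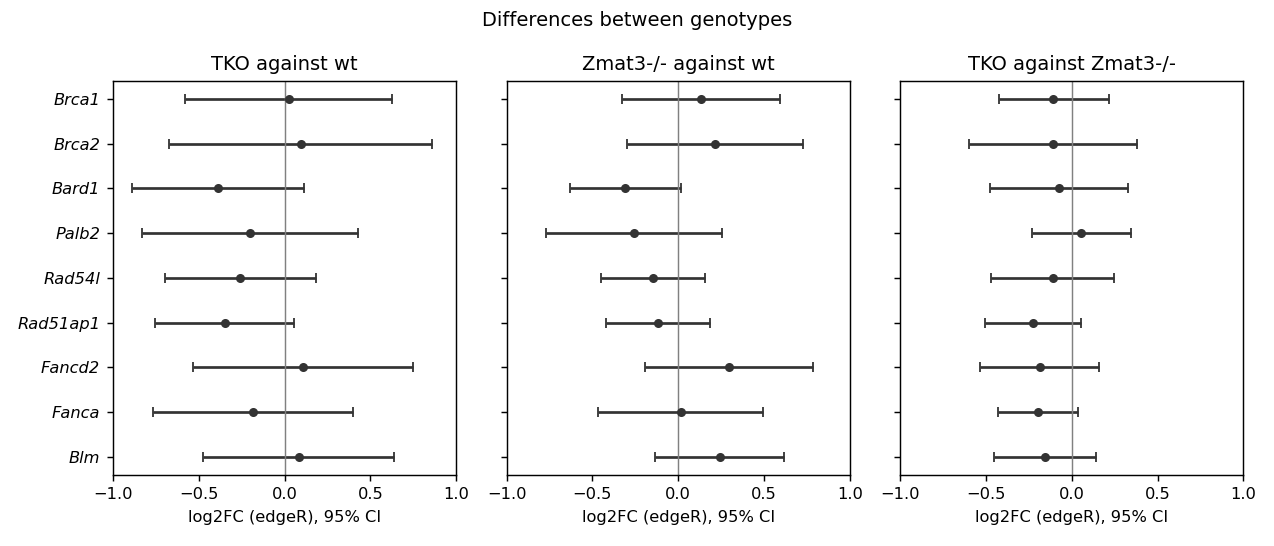
The log2FC (horizontal axis, points) with its 95% confidence interval (bars) is plotted for each of the 9 genes in the 3 comparisons. Every interval crosses the line at 0, and the standard errors between TKO and Zmat3-/- mice are 0.105 to 0.220.

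One library weighed heavily on the TKO values. TKO mouse 3, also the most deeply sequenced, was the highest TKO animal for 9 of 9 genes, and TKO mouse 2, the least deeply sequenced, the lowest for 8 of 9. With TKO mouse 3 left out, the log2FC of TKO against Zmat3-/- mice had an unadjusted p under 0.05 for 7 of the 9 genes, all lower (Brca1, Bard1, Rad54l, Rad51ap1, Fancd2, Fanca and Blm), where 3.14% of all genes were lower at that p. Their log2FC then ran from −0.42 for Fancd2 to −0.28 for Fanca, and none passed the adjusted threshold (lowest edgeR adjusted p = 0.412). As the omitted mouse was the highest TKO animal for 9 of 9 genes, leaving it out lowers the TKO mean of each. The members also vary together, so the direction and the count of 7 are descriptions only. Against wt the same omission left Bard1, Rad54l and Rad51ap1 lower at an unadjusted p under 0.05, with 3.39% of all genes lower, and again 0 after adjustment. In that mouse the mitosis genes were also high, at a mean log2 deviation of 0.54 from the 11-mouse mean, against −0.34 and −0.31 in TKO mice 1 and 2, and the median of long genes was 0.29. The part of these in the result was not tested.

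The wt group was split in a similar way. wt mouse 2 was the lowest wt animal for 8 of 9 genes, and the 9 genes lay at a mean log2 deviation of −0.061 and −0.38 in wt mice 1 and 2 against 0.25 and 0.23 in wt mice 3 and 4. Without wt mice 1 and 2, Zmat3-/- thymocytes had lower Bard1 (log2FC −0.37, edgeR adjusted p = 0.0443), Palb2 (−0.61, adjusted p = 0.00286) and Fanca (−0.29, adjusted p = 0.0380), where 33.0% of all genes were called. In TKO mice 0 of 9 were called in that fit, with the lowest adjusted p for Fanca (0.0581). With exon length as an offset instead, also added after seeing the data, 0 of 9 were called in each comparison and the median log2FC was −0.29, −0.12 and −0.15 for TKO against wt, Zmat3-/- against wt and TKO against Zmat3-/- mice.

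**Figure D3:**
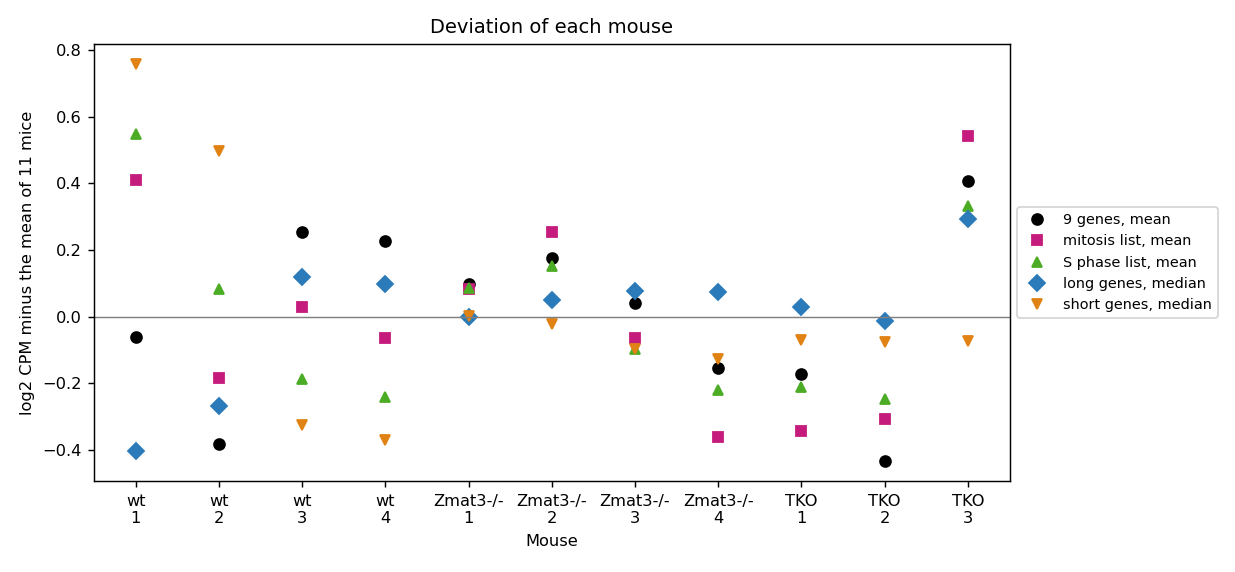
For each of the 11 mice (horizontal axis), the vertical axis gives the log2 CPM relative to the mean of all mice: the mean of the 9 genes, of 19 mitosis and of 28 S phase genes, and the median of 3858 long and 1459 short genes. The 9 genes range from −0.43 in TKO mouse 2 to 0.41 in TKO mouse 3, and the long and short genes part most widely in wt mice 1 and 2.

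The 9 genes varied together across the 11 mice, which share library, depth and genotype effects, so the correlations of log2 CPM are descriptions. Pearson's r between pairs of members ran from 0.162 to 0.967 over the 36 pairs, with a median of 0.605. After the mean of each genotype was subtracted, the median was 0.798 and the range was 0.103 to 0.983. Brca1 followed the other 8 genes most closely (r = 0.934) and Rad51ap1 least (r = 0.581). The mean of the 9 genes had r = 0.688 (Spearman's rho 0.682) with the 19 mitosis genes, among them Mki67, Top2a and Ccnb1. This was 0.747 without the 2 animals farthest from the median of the mitosis mean. With 28 S phase genes, among them the Mcm helicase subunits and Pcna, r was 0.245 (rho 0.364, and 0.117 without the 2 farthest).

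The members differed in how closely they followed the lists, and each had a higher r with the mitosis than with the S phase mean. Rad51ap1, Rad54l and Bard1 had r of 0.893, 0.877 and 0.851 with the mitosis mean, and 0.787, 0.611 and 0.622 with the S phase mean. Palb2 had 0.124 and −0.324, and the remaining 5 genes had 0.422 to 0.578 with the mitosis and 0.0097 to 0.121 with the S phase mean. The 3 genes with the high values have 4813 to 7706 exon bases, the other 6 have 7342 to 13643, and gene length moved with the split of the wt animals. Its part in this pattern was not tested. At the adjusted threshold, edgeR called 0 of 28 S phase and 0 of 19 mitosis genes in either comparison with wt, with 1 S phase gene at an unadjusted p under 0.05, in Zmat3-/- mice.

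Among the 5 genes whose log2 CPM followed the mean of the 9 most closely over the 11 mice, of 13513 compared, were Kif14 (r = 0.966), Pole (0.961), Cit (0.953) and Mastl (0.952), while the median over all genes was 0.128. Kif14 is a mitotic kinesin, Pole encodes the catalytic subunit of DNA polymerase epsilon, Cit a kinase of cytokinesis and Mastl a mitotic kinase. Kif14 spanned 24.3 to 60.4 CPM and Pole 31.5 to 78.7 CPM between animals.

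Levels per kb of exon set genes of different length side by side. The length is that of all annotated exons merged, not of the transcripts expressed, so the order also depends on the annotation. Rad51ap1 had the highest median of the 9 over the 11 mice, 6.27 CPM per kb (4.77 to 8.52). Palb2 had the lowest, 1.35 (1.1 to 1.96). Between them lay Blm (4.89), Bard1 (4.62), Brca1 (4.35), Fancd2 (3.68), Rad54l (3.28), Fanca (2.38) and Brca2 (1.86). Rad51ap1 was above Blm, Brca1 above Fancd2, Rad54l above Fanca, and Fanca above Brca2 in 11 of 11 mice. Blm, Bard1 and Brca1 were not separated: Blm exceeded Bard1 in 5 of 11 and Bard1 exceeded Brca1 in 6 of 11. Fancd2 was above Rad54l in 9 and Brca2 above Palb2 in 8 of 11. Over the 11 mice the highest value was 1.79-fold the lowest for Rad51ap1 and Palb2 and up to 2.68-fold for Brca2, and the lowest count behind any value was 148 reads (Palb2 in TKO mouse 2, a counting error of 8.22%).

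**Figure D4:**
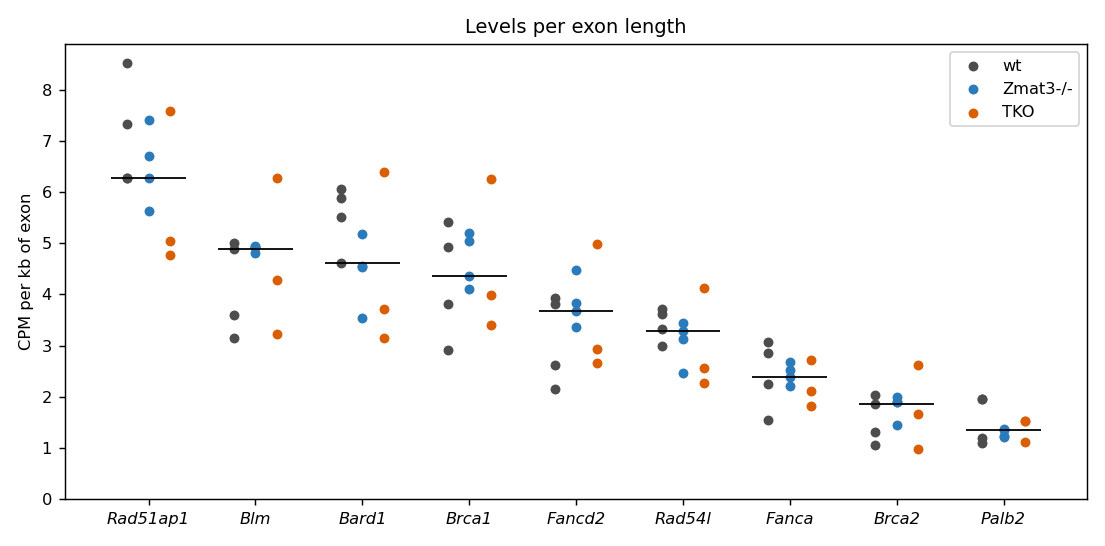
CPM per kb of exon (vertical axis, from 0) is plotted for each of the 9 genes in order of their median over the 11 mice (line), with 1 point per mouse in the colour of its genotype. The medians fall from 6.27 for Rad51ap1 to 1.35 for Palb2, and the 3 genotypes overlap in every gene.

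Some of the reads could come from neighbouring genes, because the kit does not mark the strand. Exons on the opposite strand covered 15.4% of the exon bases of Rad54l (Lrrc41), 10.5% of Fanca (Zfp276), 5.64% of Palb2 (the pseudogene Gm16326), 3.24% of Fancd2 (Fancd2os) and 0.301% of Brca2 (Gm42529). Brca1, Bard1, Rad51ap1 and Blm shared no exon bases with another annotated gene.

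The 9 genes were set in their pathway with 54 further genes of recombination and crosslink repair, all of which were tested. None of the 54 was called in the pairwise edgeR tests at an adjusted p under 0.05. The calls depended on the model and on the wt animals. DESeq2 called 0 of them in TKO against wt, 6 (Rad52, Abraxas1, Fancg, Ube2t, Rmi2 and Slx1b, all lower) in Zmat3-/- against wt and 0 in TKO against Zmat3-/- mice, beside 2.87%, 8.04% and 0.556% of all genes tested. With 1 surrogate variable, edgeR called 6 of the 54 in TKO against wt, beside 17.9% of all genes. Of these, 2 were higher (Fancm and Wrn) and 4 lower (Faap20, Ube2t, Rmi2 and Slx1b). In Zmat3-/- against wt it called 16, beside 37.8% of all genes. There 6 were higher, among them Fanci, Fan1, Usp1 and Wrn, and 10 lower, among them Faap20. Without wt mice 1 and 2 it called 2 in TKO against wt (Mcm9 and Ube2t, both lower, beside 8.15% of all genes). In Zmat3-/- against wt the same omission gave 22 calls, beside 33.0% of all genes. Of these, 5 were higher, among them Sfr1 and Usp1. The other 17 were lower, among them Rad52, Abraxas1, Fancc, Fancg, Ube2t, Rmi2, Eme1 and Slx1b. Fancm was called higher in Zmat3-/- mice with 1 surrogate variable and lower without wt mice 1 and 2. With all 3 genotypes in one fit, Fancg and Slx1b were called in Zmat3-/- against wt (1.77% of all genes). At an unadjusted p under 0.05, TKO mice had 0 of them above and 5 (9.26%) below wt, Zmat3-/- mice had 1 above and 8 (14.8%) below wt, and TKO mice had 0 above and 2 (3.70%) below Zmat3-/- mice, to be read against the shares of all genes given above. The median log2FC of the list was −0.12, −0.11 and −0.035 in the same order.

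Lower at that unadjusted threshold in both comparisons with wt, which share the wt animals, were Ube2t, the ubiquitin-conjugating enzyme that acts on FANCD2, Slx1b, Rmi2, Eme1 and Abraxas1. Slx1b and Eme1 belong to nucleases that cut joint molecules, Rmi2 is a partner of BLM and Abraxas1 a partner of BRCA1. Ube2t had a mean of 23.2 CPM in wt (18.9 to 27.7), 15.3 in Zmat3-/- (13.6 to 17.2) and 15.8 in TKO mice (12.8 to 19.0). Its range in Zmat3-/- mice did not overlap that of wt, and its log2FC was −0.59 ± 0.15 (edgeR adjusted p = 0.113) and −0.60 ± 0.18 in TKO mice (adjusted p = 0.353). Slx1b, with 16.7, 11 and 11.7 CPM in wt, Zmat3-/- and TKO mice, had −0.59 ± 0.13 (adjusted p = 0.0920) and −0.56 ± 0.17 (adjusted p = 0.370). Its exons share 6.22% of their bases with the pseudogene Gm6939 on the same strand and 10.2% with Bola2 on the other, so its reads are uncertain. The same holds, through genes on the opposite strand, for Mcm9 (19.2% with Asf1a), Fancc (16.4% with Gm16133), Fanci (16% with Polg) and Fancf (15% with Gas2). Among others, it also holds for Fancl (13.7% with Vrk2), Eme1 (8% with Lrrc59 and 2.72% with Mrpl27) and Fancm (5.51% with Gm47870). Immediate-early genes moved with the same split of wt and mutant mice: the summed level of 8 such genes spanned 174 to 481 CPM among wt, 972 to 1263 among Zmat3-/- and 930 to 1280 CPM among TKO animals, 5 of the 8 were higher and 1 (Egr1) lower at an unadjusted p under 0.05 in each comparison with wt, and Fosb and Dusp1 passed the adjusted threshold in both. Of 10 stromal genes tested, 3 were higher at an unadjusted p under 0.05 in Zmat3-/- and 0 in TKO mice against wt, with summed levels of 162 to 264 CPM (wt), 199 to 217 CPM (Zmat3-/-) and 194 to 206 CPM (TKO) over 11 listed genes. Of 9 myeloid genes tested, 1 (Adgre1) was higher at that p in Zmat3-/- and 0 in TKO mice. Among 13 thymocyte markers, 2 (Cd3e and Rag2) were lower at that p in Zmat3-/- and 1 (Cd3e) in TKO mice. Among 5 markers of mature thymocytes 2 (Ccr7 and S1pr1) were lower in Zmat3-/- and 0 in TKO mice. The part of all these in the differences of the repair genes was not tested.

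In Zmat3-/- mice Rad52, Fancc and Fancg were also lower at an unadjusted p under 0.05, with the lowest adjusted p for Fancg (log2FC −0.46 ± 0.089, edgeR adjusted p = 0.0633), while Usp1, which removes the ubiquitin from FANCD2, was higher (0.26 ± 0.099, adjusted p = 0.253). Under the replicate block, Fancc was no longer among the lower genes and Fan1 was among the higher ones at that threshold. The other extremes of the list were Faap20, a core complex subunit, at −0.49 in Zmat3-/- and −0.63 in TKO mice, Zswim7 at −0.61 in TKO mice, the nuclease Fan1 at 0.61 and 0.38, the helicase Wrn at 0.37 and 0.30, Fancm at 0.43 in TKO and Fanci, the partner of FANCD2, at 0.28 in Zmat3-/- mice. In the pairwise edgeR tests each of these had an adjusted p of 0.402 or more. With 1 surrogate variable, Faap20, Fan1, Wrn, Fancm and Fanci were among the genes called, as given above. The 8 genes lower in Zmat3-/- mice had a median of 4145 exon bases against 4952.5 over the list. With exon length as an offset, 8 genes were lower and 1 higher at the unadjusted threshold, and Rad52, Fancg, Rmi2 and Slx1b passed the adjusted one, where 2.28% of all genes did. The 8 lower genes then held Rmi1 in place of Eme1, and in TKO against wt neither Eme1 nor Abraxas1 was lower at the unadjusted threshold with the offset.

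By role, end resection genes had a median log2FC of 0.12 in TKO and 0.17 in Zmat3-/- against wt, and FANCD2's partner and the crosslink nucleases 0.046 and 0.14. Medians below 0 were found for other roles: −0.27 and −0.29 for the core complex with Ube2t, −0.24 and −0.20 for junction dissolution and resolution, and −0.17 and −0.13 for BRCA1's partners. Between TKO and Zmat3-/- mice the list spanned −0.29 for Fancl, the ubiquitin ligase of the core complex, to 0.27 for Fancf, each with an adjusted p of 0.983. Next to Fancl stood Zswim7 (−0.27) and Fanci (−0.26), and next to Fancf stood Rad52 (0.19) and Fancg (0.18), all with an adjusted p of 0.983.

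**Figure D5:**
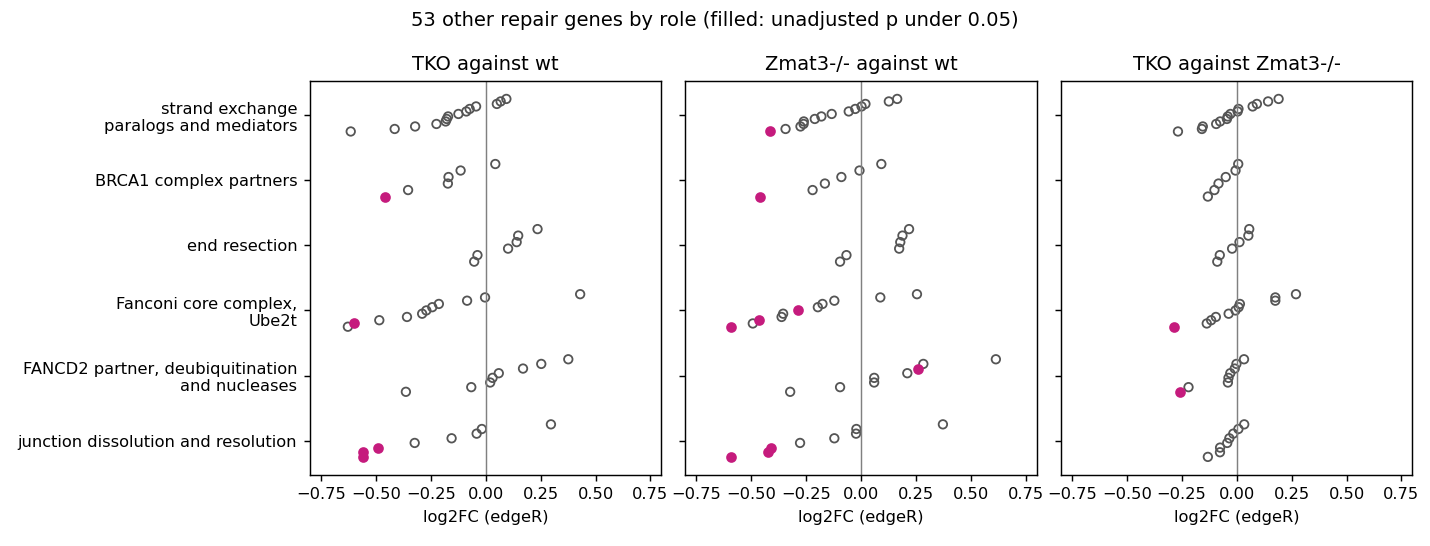
Each circle is 1 of 53 of the further repair genes, grouped by role (vertical axis) and placed by its log2FC (horizontal axis) in the 3 comparisons. Filled circles have an unadjusted p under 0.05: 5, 9 and 2 genes from left to right, of which 1, Usp1 in Zmat3-/- against wt, lies above 0.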

How the data were processed

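Thymocyte RNA from 4 wt, 4 Zmat3-/- and 3 TKO mice was sequenced as paired ends from an unstranded kit. The authors quantified reads with Salmon in nf-core/rnaseq (GRCm38.p6, GENCODE vM25) and deposited estimated counts per gene, not normalized; all 598598 values were whole. Groups and numbers came from the sample titles. Of 54418 genes, 54166 matched GENCODE M21, which gave names, positions and merged exon lengths.

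Genotypes were compared pairwise with edgeR 4.0.16 (TMM, quasi-likelihood F-test, two-sided, Benjamini-Hochberg over all tested genes; R 4.3.3). The filter kept genes reaching 20 counts (at the depth of the smallest library) in a number of mice equal to the size of the smaller group; Xist, chromosome Y, rRNA and immunoglobulin pseudogenes were left out. A gene was called at an adjusted p under 0.05. The SE is the absolute log2FC over the square root of F. CPM used TMM factors over 11 mice, and log2 CPM a prior count of 2. The submitters' processing notes name DESeq2 1.40.0; the study modelled sex and surrogate variables. Sex is not among the labels, so Xist as a covariate and 1 surrogate variable (sva 3.50.0) were alternatives, besides DESeq2 1.42.0, RLE factors, other filters, all genotypes in one fit, a replicate block and each mouse left out. The exon length offset and the omission of wt mice 1 and 2 were added after seeing the data. Total counts of 17669715 to 80207003 set the precision; floors and counting errors cover counting only. The fit and the offset were tested on simulated data.

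Same-numbered Zmat3-/- and wt mice deviated together from their group means (r = 0.337, 0.128, 0.257 and 0.301 for numbers 1 to 4, own number best in 3 of 4). These numbers, taken from the titles, were therefore treated as pairs in the replicate block. The study does not describe pairs. In both genotypes numbers 1 and 2 had high and numbers 3 and 4 low Xist, so the numbers coincide with the Xist split.

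The members and gene lists were chosen with earlier results of these data known. Besides the 9 members and the 3 deleted genes, the named genes are, per comparison, pathway genes past the adjusted threshold and the 3 highest and 3 lowest log2FC, and the 5 genes most like the members' mean. Pathway genes named for an unadjusted p, the list examples and the ratios were chosen after their values were seen. 1 gene of the pathway list and 1 of the 5 most like the members are counted but not reported here.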

Additional observations from a re-analysis of the deposited data

Results flagged for a closer look

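Among 18 sets of 4 mice (9 genes in wt and in Zmat3-/-), Dixon's test singled out 1, about what chance gives (1 in 20). It was Blm in Zmat3-/- mouse 4, at 42.2 CPM, with the other 3 Zmat3-/- animals at 43.2 to 43.4 CPM. The gap took 0.830 of the range, just past the limit for 4 samples. The difference is smaller than the counting error of that library for Blm, 3.14% at 1017 reads.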

How the results depend on the processing

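Under every alternative the 9 genes had 0 calls in TKO against wt and in TKO against Zmat3-/- mice. In Zmat3-/- against wt mice 1 gene (Blm) was called with 1 surrogate variable, beside 37.8% of all genes. Without wt mice 1 and 2, 3 (Bard1, Palb2 and Fanca) were called, beside 33.0% of all genes. With the replicate block 0 of 9 were called in each comparison, and the median log2FC was −0.022, 0.061 and −0.23 for TKO against wt, Zmat3-/- against wt and TKO against Zmat3-/-. The block changed no call on the members. The numbers did not pair TKO with wt mice (r = 0.0734, 0.302 and 0.405, own number best in 2 of 3) or TKO with Zmat3-/- mice (0.195, 0.0102 and 0.174, best in 1 of 3).

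The uncalled log2FC near 0 changed sign easily, and the cause was not tested. In TKO against wt, leaving out single mice gave −0.185 to 0.172 for Brca1, −0.212 to 0.354 for Brca2, −0.132 to 0.25 for Fancd2 and −0.116 to 0.249 for Blm. Brca1 was also −0.0354 with 1 surrogate variable and −0.00868 with Xist as a covariate. With the length offset Brca1, Brca2, Fancd2 and Blm were −0.116, −0.177, −0.00733 and −0.068, and without wt mice 1 and 2 −0.266, −0.224, −0.213 and −0.177. In Zmat3-/- against wt, leaving out single mice gave −0.0245 to 0.281 for Brca1 and −0.162 to 0.151 for Fanca, which was −0.00236 with 1 surrogate variable. The length offset gave −0.0228 for Brca2 and −0.117 for Fanca, and the omission of wt mice 1 and 2 gave −0.165, −0.121, −0.0329, −0.291 and −0.0298 for Brca1, Brca2, Fancd2, Fanca and Blm. In TKO against Zmat3-/-, leaving out single mice gave −0.307 to 0.0313 for Brca1, −0.401 to 0.146 for Brca2, −0.34 to 0.084 for Bard1, −0.05 to 0.156 for Palb2, −0.326 to 0.0265 for Rad54l and −0.341 to 0.0148 for Blm. CCAAT was found in 6 rather than 5 promoters with the whole window, and the E2F and CHR counts stayed at 2 and 1.

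The number of genes called at an adjusted p under 0.05 depended strongly on the model. It was 39 in TKO against wt and ranged from 16 (replicate block) to 2378 (1 surrogate variable), with 381 by DESeq2. In Zmat3-/- against wt it was 103, from 12 (replicate block) to 5102 (1 surrogate variable), with 1085 by DESeq2, and in TKO against Zmat3-/- 29, from 16 (all genotypes in one fit) to 90 (no filter), with 73 by DESeq2. The 3 or 4 mice in a group limit the precision to the intervals given above.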
